A study of Homo sapiens with 2 samples.

Results

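The HOX genes of the HOXA, HOXB, HOXC and HOXD clusters were compared between MBD2 knockdown and sh-NC in TFK1 cells, a human cholangiocarcinoma (CCA) cell line. They were taken by their symbols (HOX, a cluster letter from A to D and a number), which gave 39 of the 56638 genes in the tables: 11 in HOXA, 10 in HOXB, 9 in HOXC and 9 in HOXD. RNA was sequenced from TFK1 cells with a knockdown of MBD2, a protein that binds methylated CpG dinucleotides, and from negative control TFK1 cells (sh-NC), with no other treatment in either. Per the study's methods the shRNAs were delivered by lentivirus and positive cells were kept by drug selection, and the labels do not say which MBD2 shRNA was sequenced. There was 1 library per condition. No difference below therefore has a replicate check, no p-value is given, and an effect of MBD2 cannot be told apart from an off-target effect of the shRNA or from the difference between 2 cultures.

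MBD2 was read first as a check of the labels. It had 365 counts in MBD2 knockdown and 1013 in sh-NC (15.6 and 44.6 TPM, a level scaled to gene length and to the sum of the library), a log2FC of -1.48. The counts summed to 14728814 in MBD2 knockdown and 14467406 in sh-NC, and 17545 genes had at least 10 counts over both libraries. The biliary epithelial markers KRT7, KRT19, EPCAM, CDH1 and SOX9 all passed this filter in both libraries, and the fibroblast, leukocyte and endothelial markers had at most 6 counts. Among the epithelial markers, SOX9 (264 against 435 counts), EPCAM (111 against 162) and KRT7 (11632 against 12975) were lower in MBD2 knockdown. KRT19 (119 against 70) and CDH1 (2342 against 1762) were higher. The part of these markers in the HOX differences was not tested. In bulk RNA, fewer cells of a kind and less RNA per cell cannot be told apart.

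HOX genes encode homeodomain transcription factors that give cells their position along the body axis. The number in a symbol is the paralog group, from 1 to 13. Genes with low numbers lie at the 3′ end of a cluster and are used early and toward the head, and genes with high numbers lie at the 5′ end and are used late and toward the tail, which is known as collinearity. Adult epithelia keep a part of this code. HOX proteins bind DNA together with PBX and MEIS proteins. In development the clusters are held silent by Polycomb complexes and kept active by the KMT2 (MLL) methyltransferases, which carry WDR5, and the anterior genes respond to retinoic acid. The clusters also hold antisense RNAs and the miRNAs of the miR-10 and miR-196 families.

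In GENCODE 29 (GRCh38) the HOXA cluster spans chr7:27092993-27200106 (107 kb) and the HOXB cluster chr17:48528526-48729178 (201 kb), both on the minus strand. The HOXC cluster spans chr12:53938765-54056030 (117 kb) and the HOXD cluster chr2:176092891-176190907 (98.0 kb), both on the plus strand. The members of a cluster thus share 1 strand and lie close together, and their exons overlap those of neighboring genes in part.

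Because MBD2 reads methylated CpG, the 250 bases upstream of a RefSeq start are shown for 2 members whose counts differed in opposite directions, HOXA6 (higher in MBD2 knockdown) and HOXD3 (lower), with every CG in capitals. Both stretches hold no annotated exon. The HOXA6 stretch is chr7:27147775-27148024 on the minus strand and the HOXD3 stretch is chr2:176157057-176157306 on the plus strand, both in GRCh38.p14.
HOXA6: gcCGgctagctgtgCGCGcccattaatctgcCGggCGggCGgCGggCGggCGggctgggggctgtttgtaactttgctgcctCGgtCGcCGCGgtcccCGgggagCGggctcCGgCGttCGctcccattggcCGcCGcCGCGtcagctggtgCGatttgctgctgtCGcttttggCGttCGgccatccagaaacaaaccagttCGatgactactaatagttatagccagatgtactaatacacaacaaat
HOXD3: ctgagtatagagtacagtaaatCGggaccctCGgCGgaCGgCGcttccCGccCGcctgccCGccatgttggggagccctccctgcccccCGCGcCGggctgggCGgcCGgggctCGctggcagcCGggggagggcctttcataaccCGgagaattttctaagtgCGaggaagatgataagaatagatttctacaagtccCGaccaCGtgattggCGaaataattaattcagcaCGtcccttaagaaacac
They hold 27 and 21 CG. RefSeq promoters of 300 bases (250 before a start and 50 after) were given for 20 of the 39 members, 27 promoters in all. HOXA3 gave 7 of them, and HOXC4 and HOXC5 share 1 window, which leaves 26 distinct windows. HOXB1, with 0 counts in both libraries, was the only HOXB member with a promoter, and HOXC4 and HOXC5 were the only HOXC members. The values below thus describe mainly HOXA and HOXD windows. They include none of the HOXB genes with at least 10 counts. The 27 promoters held 22 CG in the median (0 to 44), against 14 over all 35116 promoters, and 37.7% of all promoters held at least 22. At least 1 CG was present in 96.3% of the HOX promoters and in 96.0% of all. Of 3 longer motifs, read on both strands and none holding another, TATAAA was in 5 of the 27 (18.5%, against 11.5% of all promoters), and TGATNNAT, a form of the joint PBX-HOX site, in 3 (11.1% against 7.40%). AGGTCA, a nuclear receptor element also bound by retinoic acid receptors, was in 0 of the 27 and in 13.8% of all promoters. Such matches describe these windows only, and DNA methylation was not measured in these samples.

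HOX transcripts were a small part of the RNA. They took 0.0169% of the counts in MBD2 knockdown and 0.0192% in sh-NC. Of the 39 members, 35 had at least 1 count, and HOXB1, HOXC5, HOXC11 and HOXC12 had 0 in both libraries, where 0 allows up to 3 counts. There were 29 members with at least 10 summed counts, from 11 to 617. The other 6 with reads stayed under 10: HOXA11, HOXD1, HOXD4, HOXD11, HOXD12 and HOXD13. HOXD11 had 4 counts in MBD2 knockdown and 0 in sh-NC, HOXD13 had 3 and 1, HOXD4 had 1 and 3, and the others differed by 1 count.

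The level per length was highest for HOXB7, at 36.4 TPM in MBD2 knockdown and 37.0 TPM in sh-NC. HOXB8, HOXB3, HOXA3, HOXB9, HOXB6 and HOXC9 followed in sh-NC, at 21.1, 17.5, 14.9, 12.6, 12.3 and 11.7 TPM. These 7 were the members at 10 TPM or more in sh-NC. In MBD2 knockdown there were 6, with HOXA5 at 12.5 TPM now among them and HOXB3 (8.56 TPM) and HOXB6 (9.32 TPM) below 10. There were 16 members under 1 TPM in each library. The median TPM of the 29 members was 4.10 in MBD2 knockdown and 4.18 in sh-NC, against 11.97 and 12.21 over all genes with at least 10 counts. The order of the 39 members was similar in both libraries (rank correlation 0.938 over 39 genes, which share the 2 libraries), and HOXA and HOXB genes led it in both, with HOXC9 the highest of HOXC and HOXD8 the highest of HOXD. The HOXB cluster held 57.0% of the summed HOX TPM in sh-NC and 47.8% in MBD2 knockdown. The HOXA cluster held 21.9% and 31.6%.

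**Figure D1:**
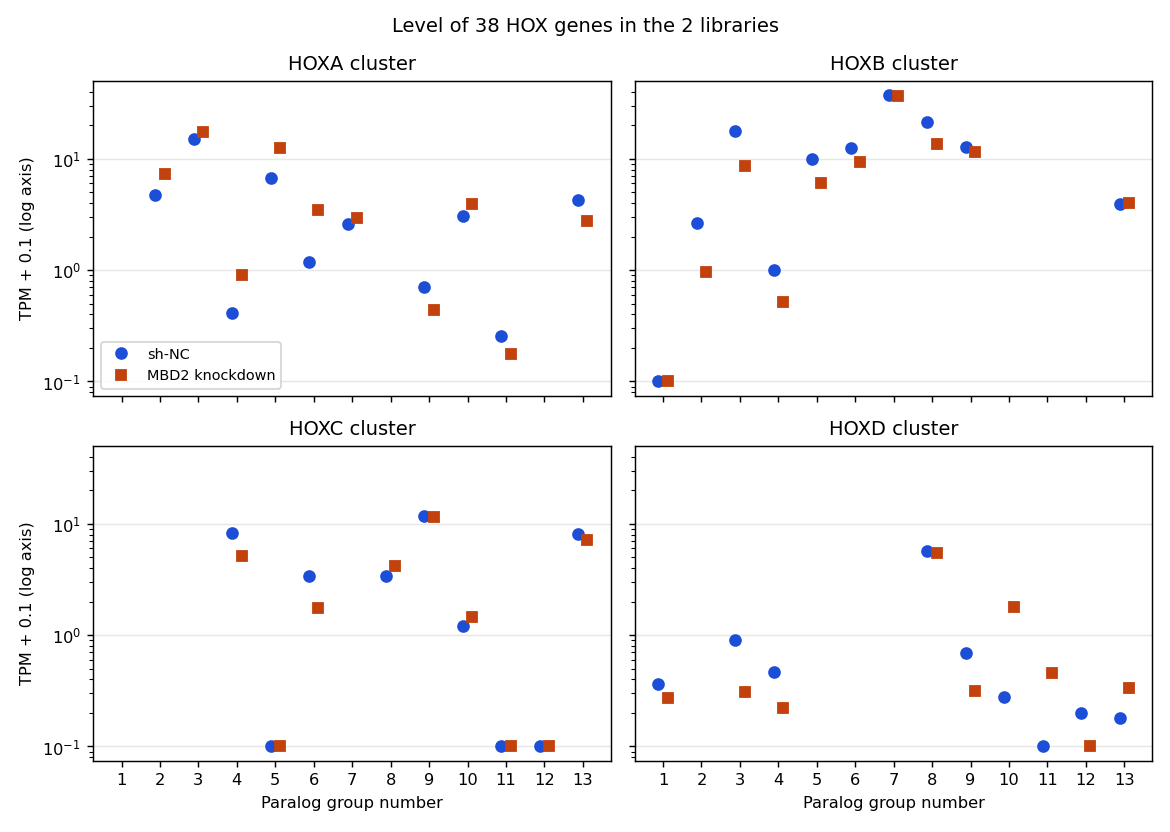
Level of 38 HOX genes in TPM plus 0.1 on a log axis, against its paralog group number, in 1 panel per cluster, with circles for the sh-NC library and squares for the MBD2 knockdown library. HOXB7 is the highest point in both libraries, at 37.0 and 36.4 TPM, and genes with no reads sit at 0.1.

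Over the family, HOXA genes were mostly higher and HOXB genes mostly lower in MBD2 knockdown. Each log2FC is MBD2 knockdown over sh-NC, after scaling by effective library size and adding a prior of 0.5 counts, and the bracketed range is an exact 95% interval, which covers counting error only because it reads each gene's counts as a binomial split over both libraries. Of the 29 members with at least 10 counts, 13 were higher and 16 lower, with HOXB7 counted as higher although its sign turned with the scaling. Their median log2FC was -0.01, as was that of all 17545 genes (-0.01). A log2FC above 1 was found for 3 members (10.3%), HOXA4, HOXA6 and HOXD10, against a background of 5.48% of all genes and 8.37% of the 9580 genes whose summed counts lay in the range of the members. A log2FC below -1 was found for 5 (17.2%), HOXB2, HOXB3, HOXB4, HOXD3 and HOXD9, against 5.07% of all genes and 7.97% of the genes in that range. The interval lay above 0 for 5 members (17.2%), against 19.7% of all genes and 13.2% in the range. It lay below 0 for 9 (31%), against 18.4% of all genes and 13.3% in the range. The shares below -1 and below 0 were thus above both backgrounds, the share above 1 was close to that of genes of like counts, and no test of the list was made.

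**Figure D2:**
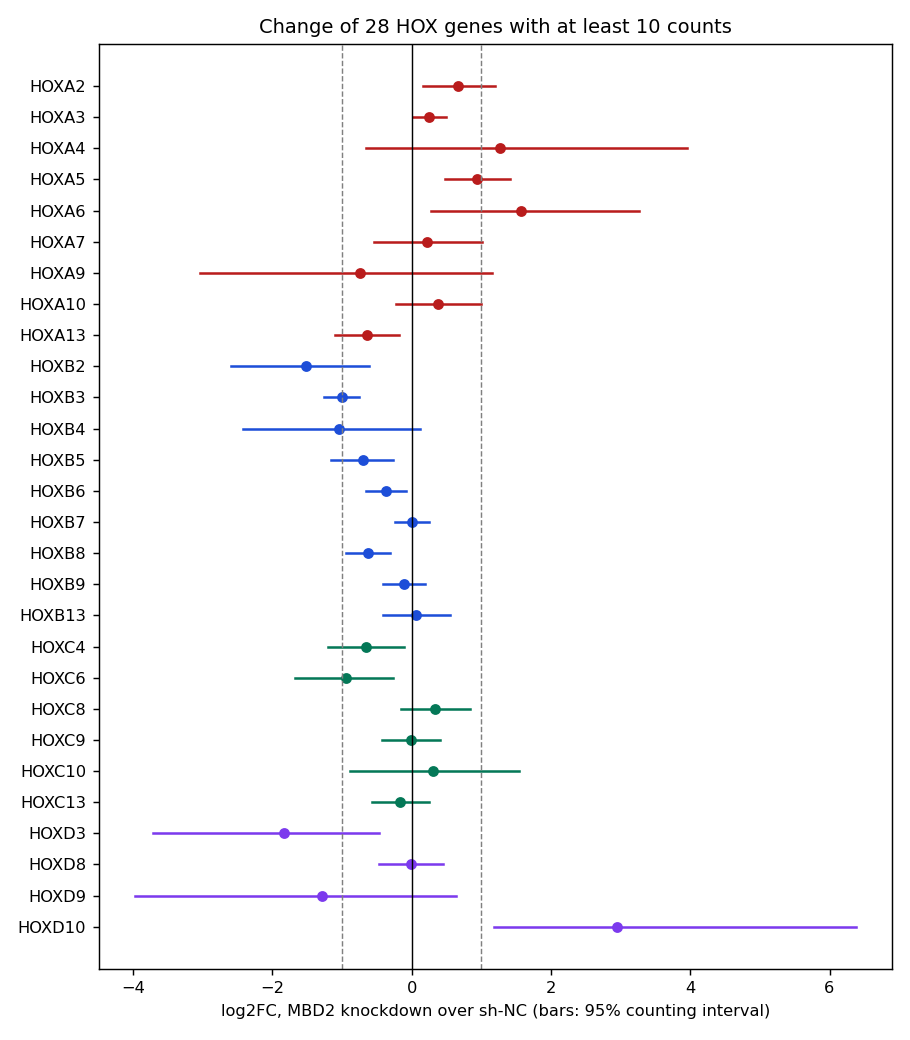
Log2FC of 28 HOX genes with at least 10 summed counts, MBD2 knockdown over sh-NC, with points for the value, lines for the 95% counting interval, dashed lines at 1 and -1, and 1 color per cluster. The HOXA points lie to the right of 0 for 7 of 9 genes, and the HOXB points lie to the left for 7 of 9.

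The sums of the clusters differed. The counts of the HOXA members summed to 839 in MBD2 knockdown and 678 in sh-NC, a log2FC of 0.30 (0.15 to 0.45). The HOXB members summed to 1159 and 1574, a log2FC of -0.45 (-0.56 to -0.34). Both intervals lay off 0, on opposite sides. The HOXC members summed to 367 and 411 (-0.17, -0.38 to 0.03), and the HOXD members to 117 in each library (-0.01, -0.39 to 0.37). All 39 members together summed to 2482 and 2780 counts, a log2FC of -0.17 (-0.25 to -0.09). A sum is led by its highest genes, and without HOXA5 the HOXA sum had a log2FC of 0.22 (0.06 to 0.37), and without HOXB3 the HOXB sum had one of -0.30 (-0.42 to -0.17).

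In the HOXA cluster, 8 of the 10 genes with at least 10 counts were higher in MBD2 knockdown, with a median log2FC of 0.32. The interval lay above 0 for 4 of the 10 and below 0 for 1, against 19.7% and 18.4% of all genes. HOXA2, which gives the second branchial arch its identity, had 85 counts in MBD2 knockdown and 53 in sh-NC (7.20 and 4.60 TPM), a log2FC of 0.67 (0.16 to 1.20). HOXA3, needed for the thymus and the parathyroid, had 325 and 271 counts (17.4 and 14.9 TPM), a log2FC of 0.25 (0.02 to 0.49). The intervals of both of these genes lay above 0, that of HOXA3 only just. With total counts as the scaling, the number of HOX members with an interval above 0 was 4, against 5 here.

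The central HOXA genes were higher together, with 178 against 98 counts (log2FC 0.85, 0.49 to 1.22). HOXA5 (ENSG00000106004, chr7:27141052-27143668), which is needed for lung development, led them with 118 counts in MBD2 knockdown and 61 in sh-NC. Its level was 12.5 and 6.61 TPM, and its log2FC was 0.94 (0.49 to 1.41). All of its exon bases were free of other genes. HOXA6, which is next to it, had 19 and 6 counts (3.36 and 1.09 TPM), a log2FC of 1.58 (0.27 to 3.27), and 39.3% of its exon bases lie opposite exons of the antisense gene HOXA-AS3. HOXA4 had 8 counts in MBD2 knockdown and 3 in sh-NC (0.801 and 0.308 TPM), with an interval from -0.65 to 3.96 around a log2FC of 1.27. HOXA7 had 33 and 28 counts (2.86 and 2.49 TPM), a log2FC of 0.22 (-0.54 to 1.01). The intervals of HOXA4 and HOXA7 held 0.

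Toward the 5′ end of HOXA the direction was no longer shared. HOXA13, which patterns the digits, the hindgut and the urogenital tract, was lower in MBD2 knockdown, with 66 counts against 102 in sh-NC (2.64 and 4.18 TPM) and a log2FC of -0.63 (-1.11 to -0.18). HOXA10, known from the uterus and from blood cells, had 55 and 42 counts (3.79 and 2.97 TPM), a log2FC of 0.38 (-0.23 to 0.995). HOXA9, a gene of blood progenitors and of leukemia with rearranged KMT2A, had 4 and 7 counts (0.340 and 0.610 TPM), which left its log2FC between -3.04 and 1.16. HOXA13 was the only HOXA member whose interval lay below 0.

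In the HOXB cluster, 7 of the 9 genes with at least 10 counts were lower in MBD2 knockdown, with a median log2FC of -0.62. The interval lay below 0 for 5 and above 0 for none, against 18.4% and 19.7% of all genes. HOXB3 (ENSG00000120093, chr17:48548870-48604912), a hindbrain and pharyngeal arch gene, had the largest difference in counts of all HOX genes, with 206 in MBD2 knockdown and 411 in sh-NC. Its level was 8.56 and 17.5 TPM, and its log2FC was -1.004 (-1.25 to -0.76), which was -0.995 with the size factors of DESeq2 and -0.998 with a prior of 2 counts, no longer past -1. Its neighbor HOXB2, which acts in the hindbrain, had 13 and 38 counts (0.857 and 2.57 TPM), a log2FC of -1.52 (-2.59 to -0.62). HOXB4, known for the expansion of blood stem cells, had 9 and 19 counts (0.419 and 0.907 TPM), a log2FC of -1.05 (-2.41 to 0.13). These 3 neighbors were the HOXB genes below -1, and only the interval of HOXB4 held 0.

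The middle of the HOXB cluster showed smaller differences. HOXB5 had 69 counts in MBD2 knockdown and 112 in sh-NC (5.91 and 9.85 TPM), a log2FC of -0.70 (-1.16 to -0.26). HOXB6 had 183 and 235 counts (9.32 and 12.3 TPM), a log2FC of -0.37 (-0.66 to -0.08). HOXB8, a target of miR-196, had 140 and 214 counts (13.4 and 21.1 TPM), a log2FC of -0.62 (-0.94 to -0.31). All 3 intervals lay below 0. HOXB7, which lies between HOXB6 and HOXB8, did not share this direction, with 284 and 281 counts and a log2FC of 0.01 (-0.24 to 0.25), which ran from -0.02 to 0.02 over other scalings, units, priors and filters. The 5′ members HOXB9 (177 and 190 counts, 11.4 and 12.6 TPM) and HOXB13, a gene of the prostate and the hindgut (78 and 74 counts, 3.93 and 3.83 TPM), had log2FC of -0.11 (-0.41 to 0.19) and 0.07 (-0.41 to 0.55). Their intervals held 0.

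The HOXB difference followed the order of the genes in part. HOXB8 (-0.62) was lower than HOXB6 (-0.37) and HOXB7 (0.01), which lie nearer the 3′ end. The anterior HOXB genes summed to 219 counts in MBD2 knockdown and 449 in sh-NC (log2FC -1.04, -1.28 to -0.81), of which HOXB3 gave 206 and 411. The central HOXB genes summed to 685 and 861 (-0.34, -0.49 to -0.19) and the posterior ones to 255 and 264 (-0.06, -0.31 to 0.19). Across the 9 genes, log2FC and paralog number had a rank correlation of 0.90, given as a description of genes that share the 2 libraries and part of their exons. The same value was -0.39 over the 10 HOXA genes, 0.43 over 6 HOXC genes and 0.80 over 4 HOXD genes, so the order was not the same in HOXA. Over all clusters, anterior members (groups 1 to 3) summed to 761 and 898 counts (log2FC -0.25, -0.39 to -0.11), central members (4 to 8) to 1099 and 1233 (-0.17, -0.29 to -0.06) and posterior members (9 to 13) to 622 and 649 (-0.07, -0.23 to 0.09). The anterior value rested on HOXB3: without HOXB3 and HOXA5 it was 0.18.

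**Figure D3:**
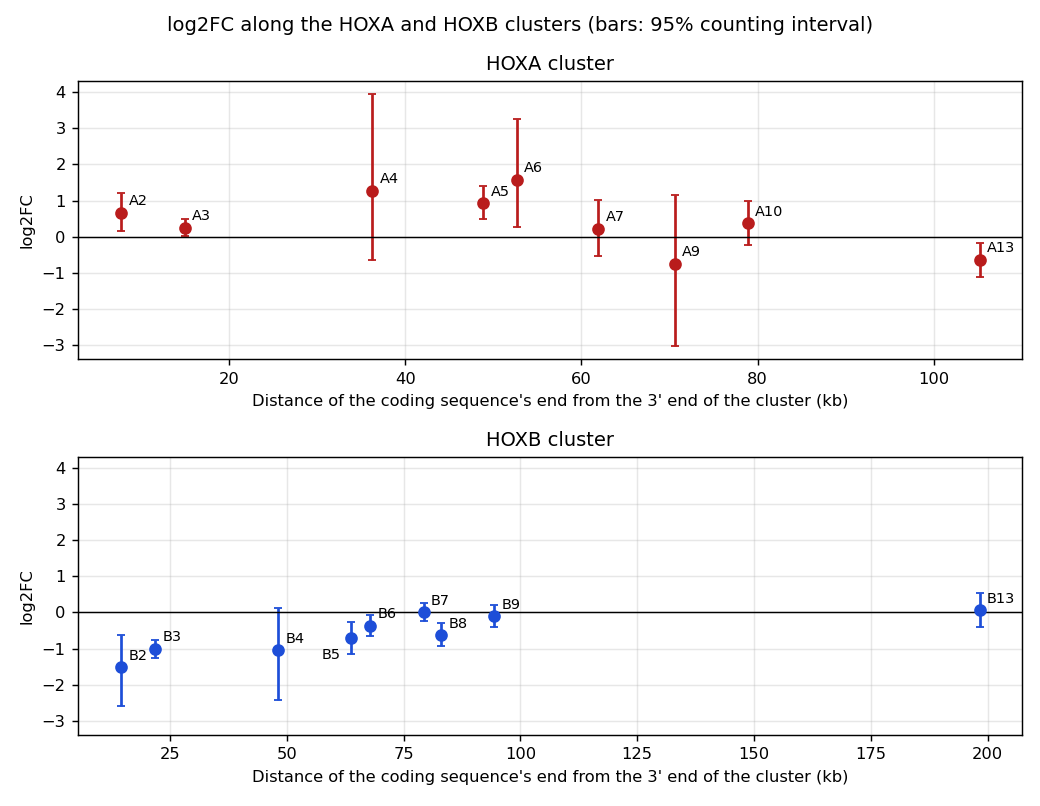
Log2FC of 9 HOXA genes (upper panel) and 9 HOXB genes (lower panel) with at least 10 summed counts, against the distance in kb from the 3′ end of the cluster to the end of the coding sequence in GENCODE 29, with bars for the 95% counting interval. In HOXB the value goes from -1.52 at HOXB2 to 0.07 at HOXB13, and in HOXA the points from HOXA2 to HOXA7 lie above 0.

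In the HOXC cluster, 2 of 6 genes had an interval below 0 and none above, against 18.4% and 19.7% of all genes. HOXC6 had 28 counts in MBD2 knockdown and 54 in sh-NC (1.66 and 3.29 TPM), a log2FC of -0.94 (-1.67 to -0.27). HOXC4 had 48 and 75 counts (5.04 and 8.08 TPM), a log2FC of -0.65 (-1.21 to -0.11). These 2 share exons: 17.8% of the HOXC4 exon bases lie in exons of HOXC5 or HOXC6 on the same strand. HOXC8, which acts in the trunk skeleton and motor neurons, had 79 and 62 counts (4.10 and 3.30 TPM), a log2FC of 0.34 (-0.16 to 0.84). HOXC9 had 99 counts in each library (11.4 and 11.7 TPM), HOXC10 had 15 and 12 (1.36 and 1.11 TPM), and HOXC13, a gene of hair and nails, had 98 and 109 (7.03 and 8.03 TPM). Their log2FC were -0.01 (-0.43 to 0.41), 0.30 (-0.88 to 1.54) and -0.16 (-0.57 to 0.24). The interval of each of these 4 genes held 0.

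The HOXD cluster was nearly silent apart from HOXD8, which had 80 counts in each library (5.42 and 5.56 TPM) and a log2FC of -0.01 (-0.47 to 0.46). HOXD10, a gene of the hindlimb and lumbar motor neurons, had the highest log2FC of the members with at least 10 counts, with 19 counts in MBD2 knockdown and 2 in sh-NC (1.67 and 0.180 TPM), at 2.96 (1.19 to 6.39). HOXD3 had the lowest, with 5 counts against 19 (0.208 and 0.809 TPM), at -1.83 (-3.71 to -0.47). Only 25.9% of the HOXD3 exon bases were free of other annotated genes. HOXD9 had 3 and 8 counts (0.217 and 0.594 TPM), which left its log2FC between -3.97 and 0.63. The posterior HOXD genes summed to 29 and 12 counts (log2FC 1.23, 0.25 to 2.37), of which HOXD10 gave 19 and 2, and HOXD1 and HOXD3 to 7 and 22 (-1.59, -3.13 to -0.38). All of these genes rested on few reads, and HOXD9 and HOXD10, which are neighbors, had log2FC of opposite sign.

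Paralogs of the same group encode similar proteins, so the ratio of the HOXA count to the HOXB count within a group was compared between the libraries. Such a ratio does not depend on library scaling. It was higher in MBD2 knockdown in 6 of the 8 groups where both genes had at least 10 counts. The interval lay above 0 in 4 and below 0 in 1, and the median log2 ratio of ratios was 1.45. Such ratios were not computed for other gene pairs, so these counts have no background share, and whether they are unusual was not tested. HOXA2 to HOXB2 was 6.54 in MBD2 knockdown and 1.39 in sh-NC (log2 difference 2.22, 1.13 to 3.38). HOXA3 to HOXB3 was 1.58 and 0.659 (1.26, 0.91 to 1.60). On the TPM scale HOXB3 was above HOXA3 in sh-NC (17.5 against 14.9) and below it in MBD2 knockdown (8.56 against 17.4). HOXA5 to HOXB5 was 1.71 in MBD2 knockdown and 0.545 in sh-NC (1.65, 0.997 to 2.31). HOXA6 to HOXB6 was 0.104 and 0.0255 (2.02, 0.60 to 3.66), and HOXA4 to HOXB4 was 0.889 and 0.158 (2.42, -0.02 to 5.29). The other groups did not share this. HOXA13 to HOXB13 was 0.846 in MBD2 knockdown and 1.38 in sh-NC, a log2 difference of -0.70 with an interval of -1.38 to -0.03. HOXA7 to HOXB7 (0.22, -0.59 to 1.04) and HOXA9 to HOXB9 (-0.70, -2.95 to 1.30) had intervals that held 0. For the whole clusters, HOXA to HOXB was 0.724 and 0.431, a log2 difference of 0.75 (0.56 to 0.93). The log2 differences are estimates from the counts of each pair (conditional odds ratio) and can differ slightly from a division of the printed ratios. These ratios reuse the counts behind the log2FC above, so they give no separate support for the opposite directions of HOXA and HOXB.

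**Figure D4:**
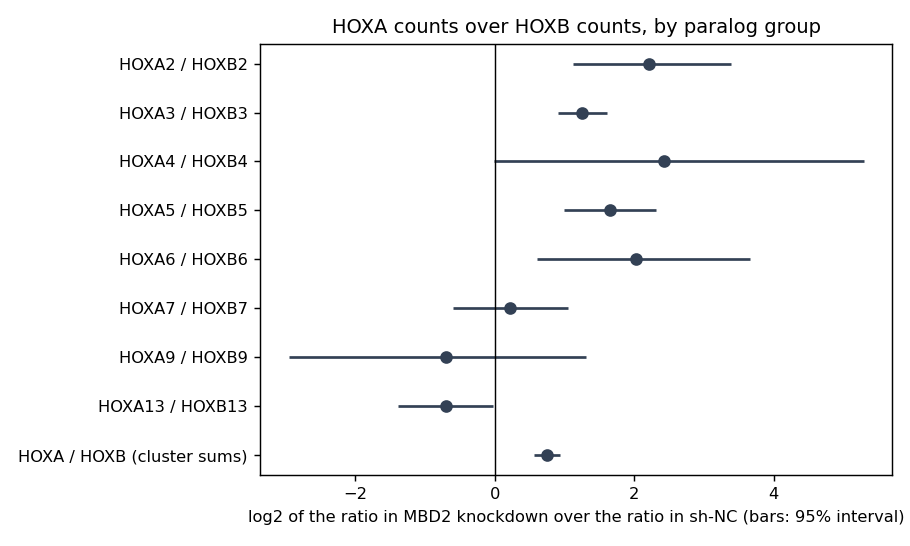
Log2 of the ratio of HOXA to HOXB counts in MBD2 knockdown over the same ratio in sh-NC, for the 8 paralog groups with at least 10 summed counts in both genes and for the cluster sums, with lines for the 95% counting interval. The intervals of groups 2, 3, 5 and 6 and of the cluster sums lie above 0, and that of group 13 lies below.

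The clusters also hold antisense and other genes. Of 44 such rows, 14 had at least 10 counts, 11 of them lower and 3 higher, with a median log2FC of -0.64, and the interval lay below 0 for 4 and above 0 for none, where 18.4% of all genes lay below and 19.7% above. In HOXB, HOXB-AS3, an antisense gene over HOXB5 and HOXB6, had 90 counts in MBD2 knockdown and 146 in sh-NC (21.2 and 35.3 TPM), a log2FC of -0.70 (-1.10 to -0.32). CTD-2377D24.6 had 37 and 68 counts (-0.88, -1.51 to -0.29). HOXB-AS4 had 24 and 36 counts (log2FC -0.58, -1.40 to 0.19), HOXB-AS2 had 3 and 11 (-1.72, -4.36 to 0.04), and RP11-357H14.17 had 100 and 126 (-0.34, -0.74 to 0.05), and these intervals held 0. CTD-2377D24.8, at 28 and 16 counts (0.78, -0.14 to 1.78), was the 1 HOXB row of 7 that was higher. HOXB-AS3, HOXB5 and HOXB6 thus each had an interval below 0. Since the strandedness of the counting is not given in the sources used here, reads of a gene and of its antisense partner cannot be told apart.

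In HOXA, HOTAIRM1, an RNA at the 3′ end of the cluster, had 94 counts in MBD2 knockdown and 78 in sh-NC (18.5 and 15.7 TPM), a log2FC of 0.26 (-0.19 to 0.71). HOXA-AS2 had 117 and 125 counts (-0.10, -0.48 to 0.27), and HOXA-AS3, opposite HOXA6 and HOXA7, had 5 and 9 (-0.80, -2.78 to 0.88). All 3 intervals held 0. In HOXC, AC012531.25 had 7 and 24 counts (-1.72, -3.25 to -0.53), HOXC-AS1 had 8 and 15 (-0.88, -2.36 to 0.41) and HOXC13-AS had 11 and 10 (0.12, -1.25 to 1.52). In HOXD, HOXD-AS1 had 38 and 52 counts (-0.46, -1.10 to 0.17). HOTAIR had 1 and 0 counts and HOTTIP 4 and 3, so these well-known RNAs of the posterior HOXC and HOXA genes were at or near the floor.

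The miRNA rows are shown with their mature sequences, since miR-196 targets HOX transcripts of the same clusters. MIR196A1 lies in an intron of the longest HOXB7 transcript (mature arm at chr17:48632532-48632553, minus strand), MIR196A2 in HOXC (chr12:53991762-53991783, plus strand) and MIR196B in HOXA (chr7:27169528-27169549, minus strand). The sequences are from RefSeq (GRCh38.p14), with the seed, bases 2 to 8, in capitals.
hsa-miR-196a-5p: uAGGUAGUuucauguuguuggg
hsa-miR-196b-5p: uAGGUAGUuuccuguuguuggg
MIR196A1 and MIR196A2 give the same mature sequence. It shares the seed of miR-196b and differs from it by A12C, counted from the 5′ end with miR-196a first, so that 21 of 22 bases are identical. The MIR196A1 row had 2 counts in MBD2 knockdown and 12 in sh-NC, a log2FC of -2.33 (-5.80 to -0.43), while MIR196A2, MIR196B and MIR10A had 0 in both. Mature miRNAs were not measured separately, and which transcripts these few reads come from was not tested.

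Over all 22 bases, HOXB8 holds the best match to miR-196a in the 3′ UTRs of the HOX transcripts searched. The site lies at chr17:48612770-48612791 on the minus strand (GENCODE 29). It is printed with the complementary bases in capitals.
HOXB8 site: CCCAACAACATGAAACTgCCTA
It is complementary at 21 of 22 bases, with the mismatch A18G counted from the 5′ end of the site against a full complement. This G faces a U of the seed. G and U can pair in RNA, but such pairs were counted as mismatches here. The next match by this count, in HOXA7, was complementary at 15 of 22 and also had mismatches facing the seed. The HOXB7 and HOXB1 sites, at 13 of 22, were complementary to the whole seed. Only the best site of each member over all 22 bases was kept, so other seed matches were not listed. HOXB8 and the MIR196A1 row were both lower in MBD2 knockdown, and HOXA7 was at 33 and 28 counts.

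None of the genes that flank the clusters was past a log2FC of 1 or -1. Of 16 flanking genes, 11 passed the filter, and these had a median log2FC of -0.02, an interval above 0 for 2 and below 0 for 4, against 19.7% and 18.4% of all genes. Beside HOXA, SKAP2 had 1546 counts in MBD2 knockdown and 1414 in sh-NC (log2FC 0.12), HIBADH had 998 and 976 (0.02) and SNX10 had 230 and 226 (0.02). Beside HOXB, TTLL6 had 106 and 176 (-0.74, -1.10 to -0.38) and CALCOCO2 1694 and 1856 (-0.14). Beside HOXC, CBX5 had 6585 and 8085 (-0.30), SMUG1 206 and 190 (0.11) and HNRNPA1 10353 and 9378 (0.13). Beside HOXD, MTX2 had 613 and 639 (-0.07), LNPK 529 and 677 (-0.36) and ATF2 792 and 799 (-0.02). EVX1, EVX2, PRAC1 and PRAC2 had 0 counts in both libraries and SKAP1 had 1 in each. TTLL6, next to HOXB13, had the lowest log2FC of the 11.

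The partners of HOX proteins differed in both directions. Of the 9 PBX, MEIS and PKNOX genes, 8 had at least 10 counts, none past 1 or -1, with the interval above 0 for 2 and below 0 for 1 (19.7% and 18.4% of all genes) and a median log2FC of -0.05. PBX3 had 232 and 365 counts (-0.66, -0.91 to -0.42), PKNOX1 had 197 and 135 (0.53, 0.21 to 0.86), PBX4 had 34 and 22 (0.61, -0.20 to 1.46) and MEIS1 had 60 and 80 (-0.42, -0.93 to 0.08). PBX3 and PKNOX1 thus lay on opposite sides of 0. Of the 6 ParaHox and CDX genes, 1 had at least 10 counts, CDX2 with 8 and 7.

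Genes of the complexes that act on HOX clusters all lay between a log2FC of -1 and 1. Intervals narrow as counts grow, so the numbers off 0 in these lists depend on depth, and over all genes 19.7% lay above 0 and 18.4% below. All 27 Polycomb genes had at least 10 counts and none was past 1 or -1, with the interval above 0 for 4, below 0 for 9 and a median log2FC of -0.02. The lowest were PHC3 (1011 and 1326 counts, -0.40) and PCGF5 (1173 and 1500, -0.36), and the highest were PCGF6 (343 and 242, 0.49) and PHC2 (614 and 462, 0.40), all subunits of PRC1. Among 13 KMT2 complex, KDM6 and related genes, none was past 1 or -1, with 3 intervals above 0, 3 below and a median of 0.07. KMT2A had 1738 counts in MBD2 knockdown and 1651 in sh-NC (0.07, -0.03 to 0.16), and WDR5 had 1079 and 863 (0.31, 0.18 to 0.44). KDM6B, an H3K27 demethylase, had 554 and 386 (0.51, 0.32 to 0.70). The lowest were PSIP1 (3639 and 4388, -0.28) and DPY30 (585 and 696, -0.26). Of 8 CTCF and cohesin genes, which shape the borders of the clusters, none was past 1 or -1 and 5 had an interval below 0, with a median of -0.14, RAD21 (-0.19) and SMC1A (-0.18) lowest and CTCF (0.07) and WAPL (-0.03) highest.

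Of these partner and regulator lists, the retinoic acid list held genes past a log2FC of 1. Of its 17 genes, 14 had at least 10 counts, 3 were above 1 and none was below -1 (5.48% and 5.07% of all genes), with 4 intervals above 0, 4 below (19.7% and 18.4% of all genes) and a median of -0.05. STRA6, a retinol uptake receptor, had 1606 counts in MBD2 knockdown and 763 in sh-NC (97.3 and 47.4 TPM), a log2FC of 1.06 (0.94 to 1.19). CYP26A1, which degrades retinoic acid, had 30 and 10 counts (1.53, 0.50 to 2.77), and CRABP2, which carries it to the nucleus, had 26 and 12 (1.08, 0.07 to 2.23). On log2 of TPM plus 1 the values of CYP26A1 and CRABP2 were 0.89 and 0.82, which left STRA6 above 1, and CRABP2 was at 0.99 with a prior of 2 counts. ALDH1A1, which makes retinoic acid, was far more abundant than any HOX gene, at 11233 and 11556 TPM, with a log2FC of -0.01. Its interval lay below 0, as did those of RDH10 (724 and 991 counts, -0.46), RXRB (309 and 412, -0.42) and RARG (424 and 485, -0.20). Retinoic acid itself was not measured.

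**Figure D5:**
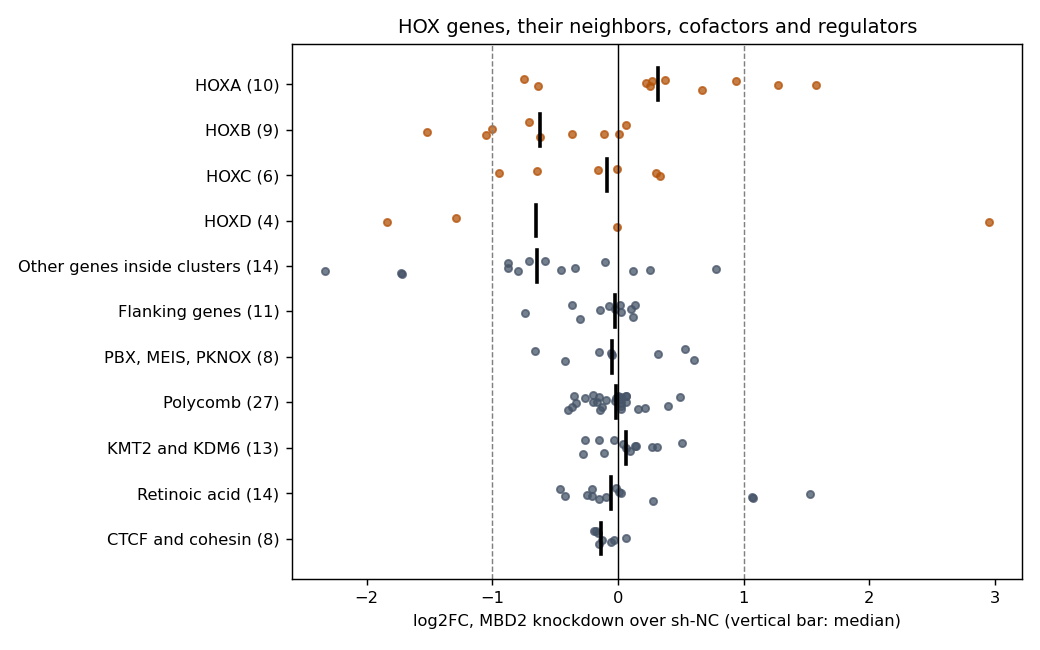
Log2FC of each gene with at least 10 summed counts in the HOX clusters (orange) and in the neighboring, partner and regulator lists (grey), MBD2 knockdown over sh-NC, with 1 point per gene, the number of genes in brackets, black bars for the medians and dashed lines at 1 and -1. The median is 0.32 for HOXA and -0.62 for HOXB, and the Polycomb, KMT2 and cohesin genes all lie between the dashed lines.

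Shared exons limit which gene a read belongs to. In GENCODE 29, 14 of the 29 members share exon bases with a gene on the same strand and 17 with a gene on the opposite strand, and 22 have at least 80% of their exon bases free of other genes. Among the genes with a log2FC past 1 or -1 or an interval off 0, HOXA4 (52.7%), HOXA6 (59.9%), HOXB6 (67.1%) and HOXD3 (25.9%) have less than 80% free, and the others have more. The gene starts given with the counts differ from GENCODE 29. Overlaps in the annotation used for counting can therefore differ from these shares.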

How the data were processed

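TFK1 cells with a knockdown of MBD2 and sh-NC cells were sequenced, 1 library each. The authors deposited raw read counts and, in another table, length-scaled TPM values, both by gene. Per the labels' processing notes, fastp, HISAT2 2.1.0, featureCounts and DESeq 1.18.1 were used with GRCh38.p13; their roles and the strandedness are not given in the sources used here. The tables' gene starts differ from GENCODE 29 (GRCh38) for all 39 members, so coordinates are from GENCODE 29 or RefSeq. Of 63723 lines, 46 without a gene were dropped, and rows that repeated a symbol with the same values were merged, leaving 56638 genes (HOXC4 stood on 2 such rows).

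Library sizes were scaled by TMM in edgeR 4.0.16 (R 4.3.3). Log2FC used a prior of 0.5 counts and genes with at least 10 summed counts. Intervals of 95% are exact binomial (Clopper-Pearson, scipy 1.17.1) and cover counting error only. For the paralog ratios, the log2 difference and its interval come from the conditional odds ratio (scipy), also with counting error only. The log2FC and the binomial interval of single genes were checked on simulated counts with counting error only and known library sizes. The TMM scaling, the sums, the paralog ratios and differences between cultures were not part of that check. HOX members, MBD2, cluster noncoding and flanking genes with at least 10 counts are named, and of other lists the members past 1 or -1, otherwise the 2 lowest and 2 highest; KMT2A and WDR5 are always named. The values of 1 HOX member and 1 partner gene are not reported here, though sums and counts include them. Clusters, positions and lists were described by counts, sums and medians, with no test. The members and lists were chosen with earlier results of these data known, and exceptions to the naming rule (ALDH1A1, RDH10, RXRB, RARG, SOX9, EPCAM, KRT7, KRT19, CDH1, HOTAIR, HOTTIP, SKAP1, EVX1, EVX2, PRAC1, PRAC2, MIR10A, MIR196A2, MIR196B) after their values were seen. Alternatives were other scalings (DESeq2 1.42.0, total counts, upper quartile), TPM, priors, filters and 2 choices of members.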

Additional observations from a re-analysis of the deposited data

How the results depend on the processing

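Differences between cultures could not be estimated. No paired analysis was possible because 1 library stood for MBD2 knockdown and 1 for sh-NC. Over 9 other scalings, units, priors and filters the log2FC of the HOXA sum ranged from 0.28 to 0.40 and that of the HOXB sum from -0.47 to -0.38. The HOXC sum ranged from -0.21 to -0.16, the HOXD sum from -0.03 to 0.08 and the sum of all HOX genes from -0.19 to -0.13. The number of members below -1 was 0 on log2 of TPM plus 1, 3 with a prior of 2 counts, 4 with DESeq2 size factors and 1 with at least 100 summed counts. HOXB3 (-1.004) was at -0.995 with DESeq2 size factors, -0.998 with a prior of 2 and -0.954 on log2 of TPM plus 1. With a prior of 2 HOXA4 was at 0.99 and HOXB4 at -0.94. The number above 1 was 5 with no filter and 0 with at least 100 counts, and the number with an interval above 0 was then 3. With total counts the number with an interval above 0 was 4, against 5 in the main setting. The median log2FC was -0.11 with no filter. With alternatives chosen after seeing the data, the number above 1 was 1 among members with at least 80% of exon bases free, and without HOXA5 and HOXB3 the HOXB sum was -0.30 and the anterior sum turned from -0.25 to 0.18. Fewer members remain with the higher filter or the exon limit; for the other changes the cause was not tested. Of 249 values of single HOX genes compared, 1 moved by more than its counting interval (HOXD10, 1.18 on log2 of TPM plus 1) and 3 changed sign. Intervals were not computed on TPM. Few reads per gene limit the HOXD genes most.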
